A study of Mus musculus with 15 samples.

Results

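The transcripts of 9 mouse genes were followed through 15 testis libraries. Of these genes, 4 encode histone variants made in male germ cells, namely H1f6 (older name Hist1h1t), H1f7 (H1fnt), H1f9 (Hils1) and H2bc1 (Hist1h2ba). The other 5 encode factors with a role in the exchange of histones, namely Brdt, Rnf8, Chd5, Cdyl and Epc1. The genes were chosen by name and found by their Entrez Gene IDs, and all 9 were among the 23510 genes in the table. All libraries came from testes of ICR mice, an outbred stock, and fell into 5 groups of 3: Con (control genotype, with no treatment described beyond that name), MNC (the vector control of the muscarinic receptor lentivirus), and M1, M3 or M5, each with knockdown of that muscarinic acetylcholine receptor. Per the study's methods, a mixture of 3 hairpin RNAs per receptor was injected as lentivirus into the testes of 5-week-old males, and 1 testis per mouse was taken 10 days later. The vector was not described as restricted to any cell type, so each library is a whole testis in which infected and uninfected cells were mixed.

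During spermiogenesis, the differentiation of round spermatids into sperm, most nucleosomes are taken apart and their histones are replaced first by transition proteins and then by protamines. Testis-specific linker and core histones enter the chromatin at different stages, in meiosis or in spermatids. Histone H4 is acetylated in elongating spermatids, and readers of that acetylation, ubiquitin ligases and chromatin remodellers take part in the eviction of histones.

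The unit throughout is FPKM, the fragments counted on a gene relative to its length and to all fragments mapped in that library, so levels of different genes are compared per length. Differences are those of log2(FPKM + 1), and a gene was called at a limma p under 0.05 after Benjamini-Hochberg adjustment over the 14514 genes tested. All 9 genes passed the filter of a mean of 1 FPKM over the 15 libraries. Absolute sequencing depth is unknown, because the table holds no counts, and summed FPKM lay between 470243 and 513817 per library. The targeted receptor transcripts were at 0.06 to 0.17 FPKM (Chrm1), 0.01 to 0.11 (Chrm3) and 0.19 to 0.43 (Chrm5) over all libraries, too low to check the knockdown labels, and in their own knockdown group they ranged over 0.09 to 0.14, 0.04 to 0.11 and 0.22 to 0.37 FPKM, overlapping MNC each time. No M3 library was most like its own group across genes: M3 replicates 1 and 2 were most like M1 libraries (r = 0.988 and 0.989), and M3 replicate 3 was most like M5 replicate 2 (r = 0.984), so M3 values with a test are also given without M3 replicate 3. MNC replicate 2 and M1 replicate 3 were most like each other (r = 0.991). The library least like any other was MNC replicate 1, whose highest r was 0.976, with MNC replicate 2. Markers of spermatogonia, spermatocytes, spermatids, Sertoli cells and Leydig cells were present in every library, as belongs to testis, although the labels' extraction protocol names sperm. Summed epididymis markers were at 7.37 to 34.6 FPKM in Con, 4.39 to 22.4 in M3 and 1.37 to 2.86 in the other groups. Of these markers, Crisp1 had means of 15.8 FPKM in Con and 8.37 in M3, while Lcn5 and Lcn8 were at 0 in 14 libraries each.

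The 4 histone variants fell into an abundant and a scarce pair. Their promoters are shown because the pairs differ so widely in transcript level, and 1 transcript end is shown because the sequenced RNA was selected by its poly(A) tail. Most replication-dependent histone messages end in a short stem-loop instead of such a tail. The annotated H1f6 transcript contains this stem-loop, with the 2 arms in capitals:
H1f6 stem-loop: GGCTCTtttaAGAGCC
It lies 185 bases before the end of the annotated 912-base transcript, which goes on past the stem-loop and holds a poly(A) signal (AATAAA or ATTAAA) in its last 50 bases. The stem-loop was found in the last 300 bases of 36 of 58797 annotated protein-coding transcripts (0.0612%), and a poly(A) signal in the last 50 bases of 50.2%. H1f9 has a poly(A) signal and no stem-loop, neither was found in H1f7, and the annotated H2bc1 transcript of 384 bases holds no sequence after the coding part, so its end could not be searched. Over the histone genes of the table, the 27 with the stem-loop had a median of the mean level of 0.175 FPKM, with 17 under 1 FPKM. The 53 in which none was found had a median of 0.54 FPKM, with 33 under 1, a like share. These 53 include genes annotated as little more than the coding part, such as H2bc13 (381 bases) and H4c12 (312 bases). The ends of such genes could not be searched either, so the 53 are not genes known to lack a stem-loop. Selection by poly(A) can lower the reads of messages that lack a tail, and its part in the levels of H1f6 and H2bc1 was not tested.

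The promoter windows below run from 250 bases before to 50 bases after the RefSeq start on the strand of the gene (assembly GRCm38.p6). Capitals mark 3 short motifs searched on both strands: TATAAA, the core of the TATA box; CCAAT, the CCAAT box (ATTGG on the other strand); and TGACG, part of the cAMP response element (CGTCA on the other strand). The 4 windows lie at chr13:23695561-23695860 (H1f6, plus strand), chr15:98257258-98257557 (H1f7, minus strand), chr11:94967343-94967642 (H1f9, plus strand) and chr13:23934107-23934406 (H2bc1, minus strand).
H1f6: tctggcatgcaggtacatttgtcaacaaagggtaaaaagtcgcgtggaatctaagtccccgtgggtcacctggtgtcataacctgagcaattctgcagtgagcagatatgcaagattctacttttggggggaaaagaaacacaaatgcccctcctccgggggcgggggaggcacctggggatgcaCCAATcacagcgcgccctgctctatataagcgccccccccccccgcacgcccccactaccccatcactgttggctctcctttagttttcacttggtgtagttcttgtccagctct
H1f7: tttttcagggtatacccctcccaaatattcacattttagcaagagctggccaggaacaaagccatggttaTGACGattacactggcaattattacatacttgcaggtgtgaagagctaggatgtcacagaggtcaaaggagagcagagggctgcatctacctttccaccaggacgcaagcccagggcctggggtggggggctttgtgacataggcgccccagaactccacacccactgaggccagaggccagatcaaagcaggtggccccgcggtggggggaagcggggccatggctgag
H1f9: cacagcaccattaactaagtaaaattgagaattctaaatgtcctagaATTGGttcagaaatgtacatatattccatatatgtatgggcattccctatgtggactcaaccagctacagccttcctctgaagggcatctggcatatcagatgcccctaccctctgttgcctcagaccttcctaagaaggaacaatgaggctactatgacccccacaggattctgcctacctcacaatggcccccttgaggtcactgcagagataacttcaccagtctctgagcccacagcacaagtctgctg
H2bc1: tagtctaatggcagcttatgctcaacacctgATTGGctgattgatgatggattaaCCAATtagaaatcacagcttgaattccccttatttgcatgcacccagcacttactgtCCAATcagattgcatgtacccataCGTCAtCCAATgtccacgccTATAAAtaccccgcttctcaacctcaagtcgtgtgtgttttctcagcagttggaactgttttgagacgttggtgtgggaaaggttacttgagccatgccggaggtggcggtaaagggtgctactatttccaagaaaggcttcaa
The H2bc1 window held the most of these motifs, with CCAAT at positions -219, -195, -138 and -108 from the annotated start, TGACG at -114 and TATAAA at -94. The annotated start of H2bc1 is the ATG of its coding part, with no sequence before it. Its positions are therefore counted from that ATG and cannot be compared with those of the other genes. H1f6 had 1 CCAAT at -65, H1f9 had 1 CCAAT at -203 and H1f7 had 1 TGACG at -180. Only exact letters were searched, so variants of the TATA box, such as the tatataag in the H1f6 window, were not counted. Among the 8 of the 9 genes whose windows were read, CCAAT was found in 5, TGACG in 3 and TATAAA in 1, against 37.4%, 20.8% and 13.6% of 32851 promoter windows of the same length. The former are counts of genes, of which Chd5 and Cdyl had more than 1 window, and the latter are shares of windows. None of the 3 motifs was found in Cdyl. These are matches of letters and not measured binding sites.

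H1f9 encodes HILS1, a linker histone of elongating spermatids, and was the most abundant of the 9 genes. The gene is a single exon at chr11:94967593-94968456 (GRCm38, plus strand) inside Sgca on the opposite strand, with which it shares no exon sequence, and Sgca itself was at 5.42 to 11.6 FPKM. H1f9 stood at 466, 442 and 488 FPKM in Con replicates 1, 2 and 3, at 533, 629 and 572 in MNC, at 535, 592 and 628 in M1, and at 555, 539 and 557 in M3. In M5 it stood at 524, 454 and 397 FPKM. Every MNC, M1 and M3 library was above every Con library and every M5 library, while M5 replicate 1 was above Con and M5 replicate 3 below it. Groups that do not overlap were common among all genes tested. For MNC, M1, M3 and M5 against Con these were 46.5%, 53.6%, 49.3% and 42.2% of genes, beside 7, 4, 4 and 4 of 9. For M5 against MNC, M1 and M3 they were 32.1%, 33.7% and 22.9%, beside 3, 3 and 1 of the 9.

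H1f7 encodes H1T2, a linker histone that gathers at 1 pole of the round spermatid nucleus and is needed for its condensation. It is a single exon at chr15:98255982-98257307 on the minus strand. H1f7 was at 262, 219 and 292 FPKM in Con, at 299, 356 and 346 in MNC, at 341, 318 and 353 in M1, at 313, 336 and 357 in M3, and at 318, 336 and 287 in M5. All libraries of the other groups were above the highest Con library except M5 replicate 3, and the MNC, M1, M3 and M5 ranges overlapped.

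H1f6 encodes H1t, the linker histone of spermatocytes, and is a single exon at chr13:23695811-23696545 on the plus strand, within the large histone cluster. Its transcript was scarce, at 1.07, 0.62 and 1.43 FPKM in Con, at 1.28, 0.73 and 1.26 in MNC, at 1.32, 1.24 and 1.35 in M1, at 1.29, 1.2 and 1.51 in M3, and at 1.19, 0.92 and 1.5 in M5. The 5 groups overlapped. Genes of a like length had a smallest value above 0 of 0.06 FPKM (median of 8 genes), so H1f6 stood at roughly 10.3 to 25.2 such steps, and differences of a few steps are not resolved.

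Among the 11 linker histone H1 genes, H1f9 held 58.2% of the summed FPKM (52.9% to 61.0% over libraries) and H1f7 34.9% (29.8% to 40.0%). Together they held 93.0% (90.1% to 94.1%). H1f10, a linker histone of many somatic tissues, followed with 5.06%, and H1f6 with 0.133%. The level of H1f6 was below that of H1f0 and H1f2, with means of 9.95 and 4.62 FPKM, and the oocyte linker histone H1f8 was at a mean of 0.0527 FPKM. Each share holds for messages with a poly(A) tail.

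**Figure D1:**
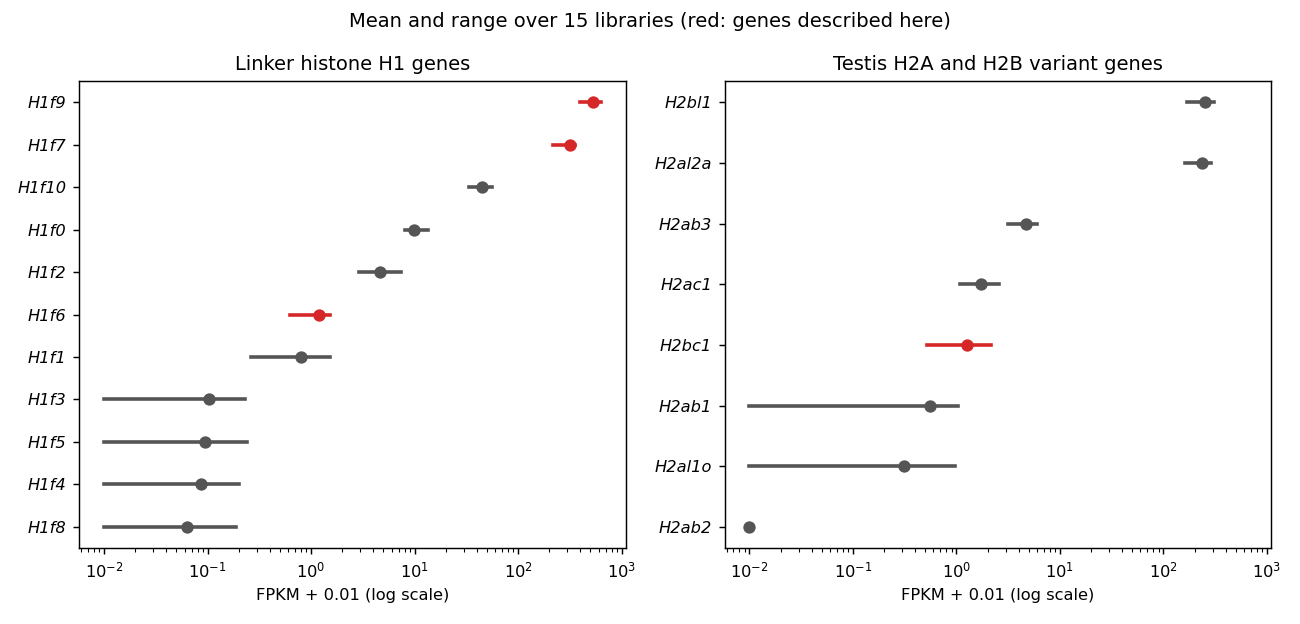
Level of each of the 11 linker histone H1 genes (left) and of 8 testis H2A and H2B variant genes (right), as FPKM + 0.01 on a log axis. Points are means and lines run from the lowest to the highest of 15 libraries, with H1f6, H1f7, H1f9 and H2bc1 in red. H1f9 and H1f7 stand above the other linker genes, at means of 527.3 and 315 FPKM, while H1f6 and H2bc1 stand near 1 FPKM.

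The ratio of H1f9 to H1f7, chosen after the values were seen and given as a description, was lowest in M5. It was 1.78, 2.02 and 1.67 in Con, 1.78, 1.76 and 1.65 in MNC, 1.57, 1.86 and 1.78 in M1, 1.78, 1.60 and 1.56 in M3, and 1.65, 1.35 and 1.38 in M5. M5 replicates 2 and 3 lay below all other libraries, and M5 replicate 1 (1.647) lay just below the lowest MNC library (1.652) and within the ranges of M1 and M3. A ratio within a library does not depend on the scaling of that library.

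H2bc1 encodes TH2B, the testis H2B that replaces somatic H2B in meiosis, and lies at chr13:23933725-23934156 on the minus strand as a single exon. It was at 1.62, 2.17 and 1.33 FPKM in Con, at 0.51, 0.83 and 1.25 in MNC, at 2.1, 1.47 and 0.7 in M1, at 1.98, 1.2 and 0.69 in M3, and at 0.57, 1.3 and 1.08 in M5. MNC and M5 lay below Con in every library, and M1 and M3 overlapped Con. Its SD of log2(FPKM + 1) over the 15 libraries, 0.35, was the largest of the 9 genes, and it stood at roughly 5.37 to 22.8 of the smallest steps seen at its length. H2B genes share long stretches of sequence, so reads can be split between copies and the value is uncertain.

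H2ac1, which encodes the partner TH2A, was in the same low range, with means of 1.54 ± 0.627 FPKM (SD, n = 3) in Con and 1.62 ± 0.217 in MNC. By contrast the spermatid variants H2bl1 and H2al2a were abundant, with means of 251 and 236 FPKM over the 15 libraries. The 3 named genes most like H2bc1 over the 15 libraries were Slc5a3 (Pearson r = 0.805), Zswim7 (r = 0.800) and Sez6 (r = 0.782). These are the highest of 14514 genes for 1 scarce transcript, and are given as a description.

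Of the exchange factors, Brdt encodes the testis member of the BET family, whose bromodomains bind acetylated H4. It lies at chr5:107331116-107387061 on the plus strand and has 19 exons in its longest transcript. Brdt was at 113, 129 and 121 FPKM in Con, at 123, 124 and 121 in MNC, at 125, 132 and 127 in M1, at 134, 119 and 131 in M3, and at 146, 140 and 118 in M5. It varied little, with a highest library 1.29 times the lowest, and 2 of the 3 M5 libraries were the highest of the 15.

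Rnf8 encodes a ubiquitin ligase that acts on histones at DNA breaks and has been tied to H2A and H2B ubiquitination in spermatids. It lies at chr17:29614789-29641664 on the plus strand, and 13.2% of its exon sequence is shared with Gm28043 on the same strand, to which reads could also be assigned. Rnf8 was at 6.58, 6.72 and 6.24 FPKM in Con, at 5.41, 5.02 and 6.16 in MNC, at 5.12, 5.27 and 5.49 in M1, at 4.86, 5.24 and 6.5 in M3, and at 5.52, 5.92 and 6.98 in M5. MNC and M1 lay below Con in every library. M3 replicate 3 and M5 replicate 3 reached into or past the Con range.

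Chd5 encodes a chromatin remodeller of the CHD family that is needed for the removal of histones in spermatids. It lies at chr4:152338646-152390194 on the plus strand with 42 exons, and 1.05% of its exon sequence overlaps Gm13645 on the opposite strand. Chd5 was at 63.0, 60.3 and 65.8 FPKM in Con, at 75.9, 85.2 and 80.6 in MNC, at 72.67, 67.37 and 80.04 in M1, at 77.1, 64.8 and 66.6 in M3, and at 67.0, 68.7 and 69.8 in M5. Of the 12 libraries outside Con, 11 were above the highest Con library, and M3 replicate 2 was inside the Con range. The M5 libraries were close together and all below MNC.

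Cdyl encodes a chromodomain protein of spermatids, known as a transcriptional corepressor. It lies at chr13:35659818-35874064 on the plus strand. Cdyl was at 70.5, 72.0 and 76.1 FPKM in Con, at 82.0, 86.7 and 88.6 in MNC, at 80.7, 75.5 and 85.6 in M1, at 88.8, 81.4 and 88.6 in M3, and at 88.7, 89.7 and 80.9 in M5. Again 11 of 12 libraries were above the highest Con library, here with M1 replicate 2 as the exception, and the groups other than Con overlapped.

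Epc1 encodes a subunit of the NuA4 or TIP60 acetyltransferase complex, which acetylates H4 and H2A. Part of its exon sequence, 7.20%, overlaps Gm28529 on the opposite strand. Epc1 was at 16.6, 16.2 and 15.8 FPKM in Con, at 14.48, 14.36 and 15.01 in MNC, at 14.9, 14.7 and 16.3 in M1, at 14.7, 14.7 and 13.8 in M3, and at 14.3, 13.6 and 14.1 in M5. All but M1 replicate 3 lay below the lowest Con library, and the M5 libraries lay below those of MNC. This was the narrowest spread of the 9 genes, with a highest library 1.22 times the lowest.

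**Figure D2:**
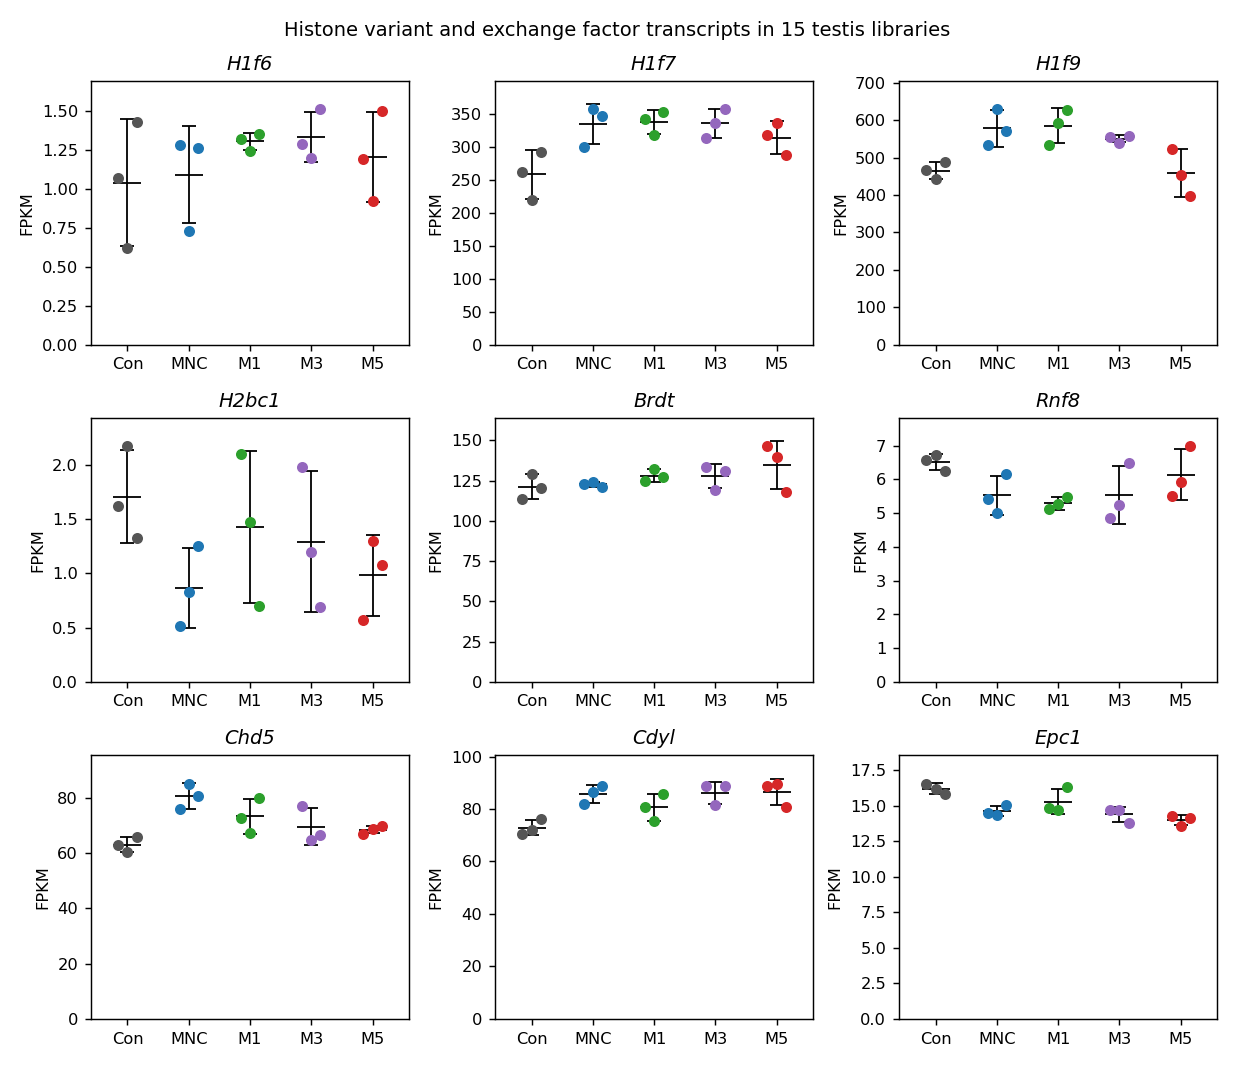
FPKM of each of the 9 genes in every library, on axes that start at 0, with 1 point per library, replicates 1 to 3 from left to right in each group, and the mean and SD (n = 3) in black. H1f7, Chd5 and Cdyl stand lower in Con than in nearly all other libraries, and H1f9 is lower in Con and M5 than in MNC, M1 and M3.

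The comparison of MNC with Con sets testes with the lentiviral vector beside Con testes. Whether the latter were injected was not stated, so vector, injection and any other difference between the 2 groups cannot be told apart. Chd5, Cdyl and H1f9 rose in MNC. Chd5 went from 63.0 ± 2.76 to 80.6 ± 4.62 FPKM (SD, n = 3 each), a log2 difference of 0.35 (SE 0.060, limma adjusted p = 0.0222). Cdyl went from 72.8 ± 2.93 to 85.7 ± 3.39 FPKM, a difference of 0.23 (SE 0.052, limma adjusted p = 0.0326), and H1f9 from 465 ± 22.9 to 578 ± 48.4 FPKM, a difference of 0.31 (SE 0.074, limma adjusted p = 0.0364). These 3 of 9 genes compare with 20.4% of all genes tested. H1f7 and H2bc1 had differences of 0.38 and -0.55 and were not called. The median difference of all genes was -0.10, and relative to it Chd5, Cdyl and H1f9 were higher by 0.44, 0.33 and 0.41.

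These calls did not hold with fewer libraries. None of the 9 genes was called without MNC replicate 2, without MNC replicate 3, without Con replicate 1 or without Con replicate 2, with adjusted p of up to 0.0938 for Chd5, 0.118 for Cdyl and 0.119 for H1f9, while the differences kept to 0.31 to 0.39, 0.21 to 0.26 and 0.25 to 0.37. H1f9 was also not called without Con replicate 3 (limma adjusted p = 0.0596). Over all genes the 2967 calls fell to 8 without Con replicate 1 and to 195 without Con replicate 2.

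Some markers of germ cells, of somatic cells and of epididymis also differed between MNC and Con. Of the spermatocyte markers, 7 of 8 were called lower in MNC, and their summed level was 636 to 689 FPKM in Con and 488 to 533 in MNC. Of the round spermatid markers, 4 of 8 were called higher, at 772 to 856 FPKM in Con and 931 to 987 in MNC, and of the elongating spermatid markers 4 of 9, at 12547 to 23463 and 24817 to 31119 FPKM. In this comparison 8.03% of all genes tested were called higher and 12.4% lower, which became 9.98% and 2.89% once each library was centred on its median. All 4 peritubular myoid markers and 7 of 8 Sertoli markers had negative differences, with 2 called in each list, at sums of 36.1 to 38.6 FPKM in Con and 26.5 to 29.2 in MNC for the former and 594 to 680 and 527 to 602 for the latter. No Sertoli marker was called with median centring, nor with 1 library left out except in the fit without Con replicate 3. Leydig cell, endothelial and macrophage markers had 0 of 6, 0 of 4 and 0 of 4 called, in mixed directions. None of the 6 spermatogonial markers was called, though all had negative differences. Among red blood cell markers, 1 of 5 was called lower. The epididymis markers summed to 7.37 to 34.6 FPKM in Con and 1.37 to 2.09 in MNC. Without Con replicate 1 no gene of the spermatocyte, round spermatid and elongating spermatid lists was called. In whole testis, more cells of a stage and more RNA per cell cannot be told apart. The part of any of these markers in the differences of the 9 genes was not tested.

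The knockdown groups gave similar pictures against Con, which they share, so that these comparisons are not independent of each other. In M1, H1f7 was at 337 ± 17.9 FPKM (SD, n = 3) and H1f9 at 585 ± 47.1, and both rose against Con, by log2 differences of 0.39 (SE 0.11, limma adjusted p = 0.0330) and 0.33 (SE 0.071, limma adjusted p = 0.0195). Rnf8 fell by 0.26, from 6.51 ± 0.247 to 5.29 ± 0.186 FPKM (SE 0.058, limma adjusted p = 0.0215). These 3 of 9 compare with 34.2% of all genes. The median of all genes was -0.12 here, and after centring each library on its median Rnf8 was no longer called (difference -0.13, limma adjusted p = 0.126), while H1f7 and H1f9 stood 0.52 and 0.45 higher. With quantile normalization they stood 0.24 and 0.23 higher and neither was called (limma adjusted p = 0.116 and 0.0856). None of the 3 was called without Con replicate 1 (adjusted p of 0.0826, 0.0664 and 0.0749 for H1f7, H1f9 and Rnf8). Only H1f7 was called without Con replicate 2, only H1f9 without M1 replicate 1 and only Rnf8 without M1 replicate 3.

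In M3, H1f9 and Cdyl rose against Con, to 550 ± 9.64 and 86.2 ± 4.23 FPKM, both by 0.24 on the log2 scale (SE 0.060 and 0.061, limma adjusted p = 0.0369 and 0.0389). That is 2 of 9, against 22.1% of all genes, and the median of all genes was -0.13. Without M3 replicate 3 the differences were 0.23 and 0.22 and neither was called (limma adjusted p = 0.0535 and 0.0606). The difference of H1f9 ran from 0.15 with quantile normalization (limma adjusted p = 0.135) to 0.40 with median centring, and it was called in 4 of 9 other settings, while that of Cdyl ran from 0.18 to 0.40. H1f9 was called in none of the 6 fits with 1 library left out, and Cdyl only in the fit without M3 replicate 2.

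In M5, Cdyl alone was called against Con, 1 of 9 against 21.7% of all genes. It stood at 86.5 ± 4.81 FPKM, higher by 0.24 (SE 0.062, limma adjusted p = 0.0359). H1f7 had a larger difference, 0.29, and was not called. Cdyl was called in only 1 of the 6 fits with 1 library left out. This was the fit without M5 replicate 3, where Brdt (0.24) and Epc1 (-0.21) were called too. H1f9 differed from Con by only -0.03, and its direction turned to 0.02 after centring on the median. The small differences of Brdt against Con, 0.02 in MNC and 0.08 in M1 and in M3, turned to -0.07, -0.03 and -0.05 with quantile normalization. Likewise Epc1 in M1 went from -0.08 to 0.04 with median centring, so these carry no direction.

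**Figure D3:**
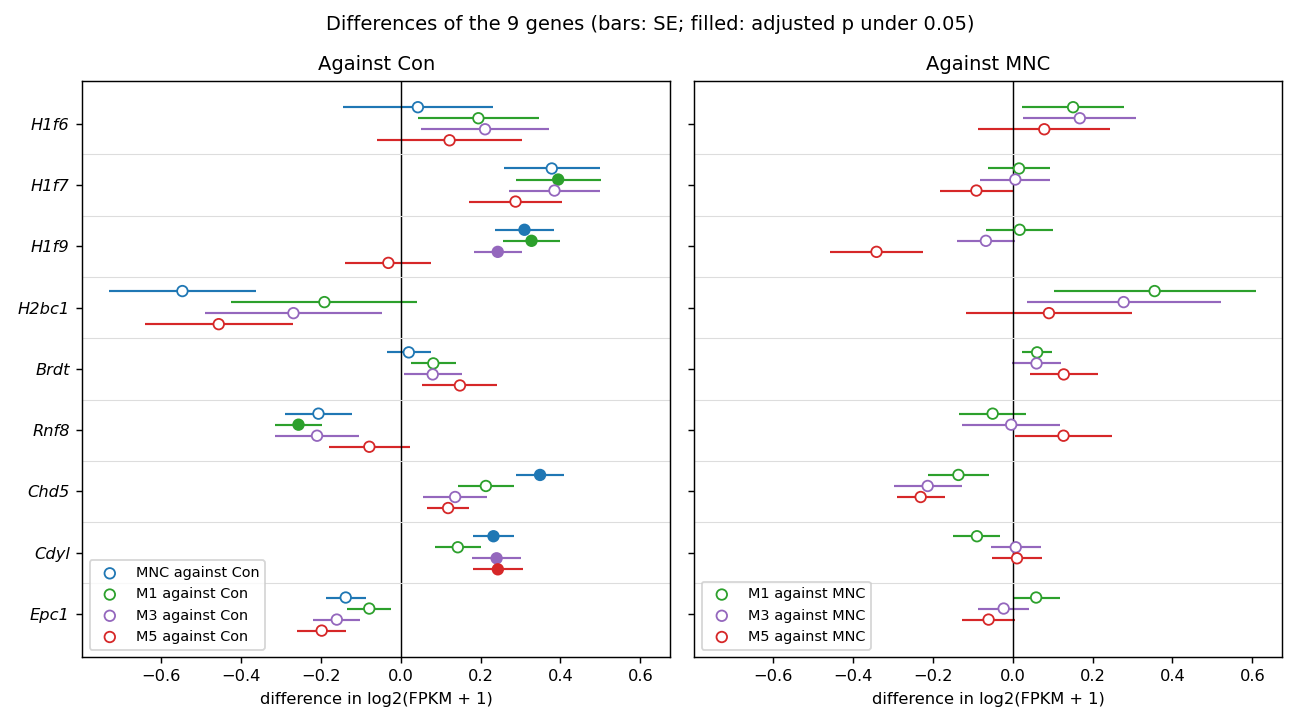
Difference in log2(FPKM + 1) of the 9 genes against Con (left) and against MNC (right), with SE as bars and 3 libraries per group. Filled points have a limma adjusted p under 0.05. Filled points appear only against Con, for H1f7, H1f9, Rnf8, Chd5 and Cdyl.

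Against MNC, the control that carries the vector, no member of the set was called in any knockdown. In M5 this was 0 of 9 genes, with 5.65% of all genes called. At an unadjusted limma p under 0.05 stood 2 of the 9, beside 24.9% of all genes. Chd5 had the lowest p, at 68.5 ± 1.39 FPKM (SD, n = 3) in M5 and 80.6 ± 4.62 in MNC, a difference of -0.23 (SE 0.060, limma adjusted p = 0.0760). It shrank to -0.08 once the trend with GC content was removed (limma adjusted p = 0.524). The other was H1f9, named after its values were seen, at 458 ± 63.7 FPKM in M5 and 578 ± 48.4 in MNC, a difference of -0.34 (SE 0.12, limma adjusted p = 0.132). Without M5 replicate 3 the difference of H1f9 was -0.24, and with 1 library left out at a time its adjusted p ran from 0.116 to 0.313. With the spread taken from all 5 groups H1f9 was called (limma adjusted p = 0.0306), the only call in 9 other settings. Its limma adjusted p reached 0.311 among them, and its difference was -0.26 with the GC trend removed. H1f7 differed by -0.09, which turned to 0.07 with the GC trend removed.

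M5 replicate 3 had the lowest H1f9, H1f7, Brdt and Cdyl of the 3 M5 libraries, but the highest H1f6, Rnf8 and Chd5, with H2bc1 and Epc1 in between. The summed markers of Sertoli cells (790 FPKM), Leydig cells (3159) and red blood cells (491) in M5 replicate 3 were the highest of the 15 libraries. Over M5, red blood cell markers summed to 148 to 491 FPKM, against 21.8 to 35.3 in MNC, and spermatocyte markers to 593 to 639 against 488 to 533, while round spermatid markers were at 913 to 935 against 931 to 987. Elongating spermatid markers summed to 24238 to 33624 FPKM in M5, lowest in replicate 3, against 24817 to 31119 in MNC. Of these 9 markers, 5 had positive and 4 negative differences. Among them 1 was called lower, beside 2.89% of all genes, and 0 with median centring. The part of these cells in the values of H1f9 and Chd5 was not tested.

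Against MNC, M1 had 0 of 9 called, with 0% of all genes called and 862 genes at an unadjusted p under 0.05, none of them among the 9. Chd5 had the lowest p here too, with a difference of -0.14 (SE 0.076, limma adjusted p = 0.827), and -0.09 with the GC trend removed. M3 likewise had 0 of 9, with 0.00689% of all genes called. At an unadjusted limma p under 0.05 stood 1 of the 9, beside 9.43% of all genes. This was Chd5 with -0.21 (SE 0.085, limma adjusted p = 0.518), which became -0.11 with the GC trend removed and -0.18 without M3 replicate 3 (limma adjusted p = 0.757). All these comparisons share the MNC libraries, the group with the highest mean of Chd5.

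Direct comparisons between the knockdown groups use no control library. M5 against M1 had 0 of 9 called, with 6.75% of all genes called, and M5 against M3 had 0 of 9, with 0.0138%. In each, 1 of the 9 had an unadjusted limma p under 0.05, beside 25.4% and 14.3% of all genes. This was H1f9, named after its values were seen. H1f9 was lower in M5 than in M1 by a log2 difference of -0.36 (SE 0.11, limma adjusted p = 0.111) and than in M3 by -0.27 (SE 0.11, limma adjusted p = 0.341). Without M3 replicate 3 the latter was -0.27 (limma adjusted p = 0.307). M1 against M3 had 0 of 9 called, with 0% of all genes called, 672 genes at an unadjusted p under 0.05 and none of them among the 9.

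**Figure D4:**
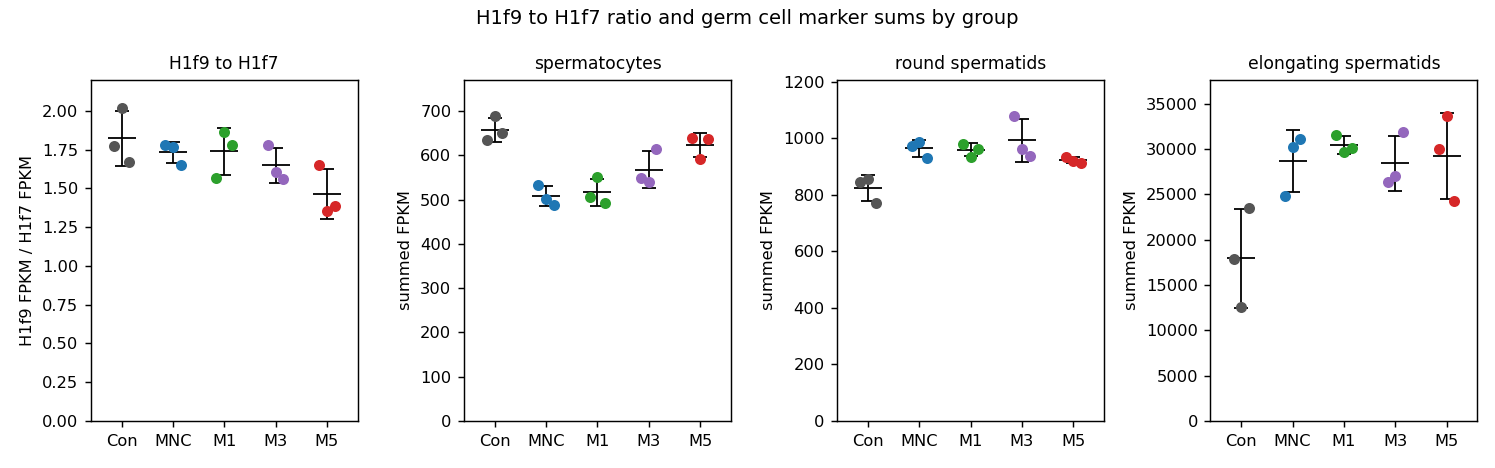
Ratio of H1f9 to H1f7 FPKM, and summed FPKM of the 8 spermatocyte, 8 round spermatid and 9 elongating spermatid markers, in every library. Axes start at 0, points are libraries, and black marks are the mean and SD (n = 3). The ratio is lowest in M5 replicates 2 and 3 (1.35 and 1.38), and the spermatocyte markers are higher in Con and M5 than in MNC and M1.

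The wider chromatin genes around the 9 were taken as 4 lists. Of 15 other histone variants tested between M5 and MNC none was called, with a median difference of 0.09 beside 0.03 over all genes. Among 25 acetyltransferases, deacetylases, readers and NuA4 or TIP60 subunits, 1 rose and 1 fell, against 2.76% of all genes called higher and 2.89% lower, with a median of 0.04. Ruvbl1, an ATPase of that complex, rose from 17.8 ± 0.819 to 25.1 ± 2.17 FPKM (log2 difference 0.47, limma adjusted p = 0.0335), and Kat8, which acetylates H4, fell from 83.2 ± 2.24 to 68.7 ± 3.46 (-0.27, limma adjusted p = 0.0489). No gene of this list was called with median centring or in 5 of the 6 fits with 1 library left out, the exception being that without M5 replicate 3.

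Of 34 ubiquitin, DNA damage and remodelling genes, 1 rose and 2 fell in M5 against MNC, with a median of 0.00. Ube2n, the ubiquitin-conjugating enzyme that works with Rnf8, was at 272 ± 17.1 FPKM in M5 and 215 ± 7.45 in MNC (0.33, limma adjusted p = 0.0411). Mdc1, the adaptor that brings Rnf8 to DNA breaks, was at 24.5 ± 0.935 and 38.0 ± 1.56 FPKM (-0.61, limma adjusted p = 0.0101), and Dot1l, the H3K79 methyltransferase, at 40.3 ± 1.15 and 58.5 ± 2.51 (-0.53, limma adjusted p = 0.0126). Rnf8 itself was not called. No gene of this list was called without M5 replicate 2, without MNC replicate 2 or without MNC replicate 3, while 1 was called without M5 replicate 1 and 5 without M5 replicate 3. None of the 5 transition protein and protamine genes was called, with a median of 0.17 that hides a spread in direction: 4 had positive differences, while Tnp2 was at 3227 ± 431 FPKM in M5 and 5276 ± 930 in MNC. With quantile normalization 4 of the 5 were called, 2 higher and 2 lower. In that setting 1039 of the 14514 genes were called, 443 of them higher.

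Between MNC and Con, 1 of the 15 other histone variants tested rose and 5 fell, beside 8.03% of all genes called higher and 12.4% lower, with a median of -0.18 beside -0.10 over all genes. The spermatid variant H2bl1 rose from 195 ± 25.3 to 261 ± 15.9 FPKM (0.43, limma adjusted p = 0.0363). H2ax, the variant phosphorylated at DNA breaks, fell from 31.5 ± 2.69 to 23.9 ± 2.67 FPKM (-0.39, limma adjusted p = 0.0408), and H2az2 (-0.35) and H2az1 (-0.31) fell as well. The 6 calls became 2 with median centring, 1 without MNC replicate 2, 0 without Con replicate 1 or 2, and 3 without MNC replicate 3 or Con replicate 3. Of the 25 acetylation genes 8 fell and none rose, with a median of -0.19, and the NuA4 or TIP60 subunits Trrap (-0.33), Brd8 (-0.31) and Mbtd1 (-0.28) led them. These 8 calls became 1 with median centring or without MNC replicate 2, 0 without Con replicate 1 or 2, and 3 without MNC replicate 3 or Con replicate 3. Epc1, their partner in the complex, was at -0.14 and was not called.

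Of the 34 ubiquitin and remodelling genes, 1 rose and 5 fell between MNC and Con, with a median of -0.10, beside -0.10 over all genes. The 6 calls became 2 with median centring, 0 without MNC replicate 2, Con replicate 1 or Con replicate 2, and 3 without MNC replicate 3. Ube2n was again higher (0.33), and Psma8, a proteasome subunit of germ cells, was lower (-0.40), as were Parp1 (-0.32) and Parg (-0.31). All 5 transition protein and protamine genes had higher means in MNC, with a median difference of 0.66, and Prm3 was called (0.70, limma adjusted p = 0.0313), though no gene of this list was without MNC replicate 2, MNC replicate 3, Con replicate 1 or Con replicate 2. Summed, these 5 genes were at 9302 to 18836 FPKM in Con and 18893 to 24919 in MNC.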

How the data were processed

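RNA was sequenced from 15 mouse testis libraries, 3 in each of Con, MNC, M1, M3 and M5. Sample titles gave the group and the replicate. M5 replicate 2 was mapped by its title, since its description points to the column of replicate 1. No source says that the 3 libraries of a group came from separate mice, so p-values cover the spread between libraries, which may be technical. Per the study's methods, mRNA was enriched by its poly(A) tail, libraries were run on an Illumina HiSeq, and SOAPaligner mapped the reads. The submitters' processing notes name the build mm10. The authors deposited 1 table of FPKM values to 2 decimals, while their methods name RPKM for expression. Names came from a RefSeq table of GRCm38.p6, which matched 21143 of 23510 IDs, and coordinates from that table. Promoter windows are from RefSeq and transcript ends from GENCODE.

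Values were analysed as log2(FPKM + 1), which understates changes of low genes. The study's test models counts, which were not used here, so limma 3.58.1 (lmFit, eBayes with trend) in R 4.3.3 was fitted to the 6 libraries of each of 10 comparisons without covariates, over 14514 genes with a mean of 1 FPKM or more. Benjamini-Hochberg adjustment ran over all of them, with two-sided p. The script was tested on simulated data. The 9 genes and the lists were chosen with earlier results of these data known. By rule, all 9 genes are given, with test values for those called and, against MNC and Con, for the lowest p. Of the lists, up to 3 genes called in each direction are named, and 3 genes by Pearson r to the gene with the largest SD. H1f9 in the M5 comparisons and the ratio of H1f9 to H1f7 were added after seeing the data. Alternatives were a pseudocount of 0.1, a filter of 0.1 or none, median centring, quantile normalization, removal of the GC trend (GC content known for 92.1% of genes tested), no trend, a joint fit of all 5 groups, a replicate block, and each library left out. Python 3.11.15, pandas 2.3.3, numpy 2.4.6 and matplotlib 3.10.9 were used for tables and figures.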

Additional observations from a re-analysis of the deposited data

How the results depend on the processing

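The direction of 15 differences was kept in every alternative. These were those of the members called, those of Chd5 against MNC, and those of H1f9 in M5 against MNC, M1 and M3. Other differences given above reversed in some settings, such as that of H1f7 in M5 against MNC. The number of the 9 genes called was not stable. In M5 against MNC and in M5 against M1 it was 0, and 1 with all 5 groups in one fit (H1f9). In MNC against Con it was 3, 2 with the filter at 0.1 FPKM, no filter or quantile normalization, 4 with all 5 groups in one fit, and 0 to 3 with 1 library left out. In M1 against Con it was 3, 0 with quantile normalization, 2 with no filter or all 5 groups in one fit, 4 with median centring, the GC trend removed or the replicate block, and 0 to 4 with 1 library left out. In M3 against Con it was 2, 1 with the filter at 0.1 FPKM or without the trend of eBayes, 0 with no filter or quantile normalization, 3 with median centring, the GC trend removed or all 5 groups in one fit, and 0 to 1 with 1 library left out. In M5 against Con it was 1, 0 with median centring, quantile normalization or no trend, 2 with the GC trend removed or all 5 groups in one fit, and 0 to 3 with 1 library left out. The other 4 comparisons had 0 of the 9 called in every alternative. Fewer libraries leave fewer degrees of freedom, and for the other settings the cause was not tested. Leaving out 1 library left 2 in its group, with the spread pooled over both groups.

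With the replicate number as a block, 0 of the 9 were called in MNC against Con, in M5 against Con and in M3 against Con. All calls of the wider lists in M5 against MNC and MNC against Con were lost too. Same-numbered libraries share only a number: their deviations correlated by -0.40 to 0.19, and no comparison had all 3 pairs above 0.1, nor did every library in any comparison correlate best with its own number. Depth is unknown, and H1f6 and H2bc1, at about 1 FPKM, resolve no small change.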
